A study of Mus musculus with 17 samples.

Results

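B cells of mice labelled as having chronic lymphocytic leukaemia (CLL) were set against B cells of mice with a deletion of Atm alone, with 2 leukaemic libraries (DM-CLL, replicates 4 and 5) and 6 Atm-deleted libraries (Atm MT, replicates 1 to 6), chosen by their genotype labels from 17 libraries in 5 groups. The DM-CLL mice carried both the Sf3b1 mutation and the Atm deletion in a model that the series title describes as restricted to B cells. The Atm MT mice carried the Atm deletion alone, so the Atm lesion is shared by both groups while the Sf3b1 mutation and the leukaemia are found in DM-CLL. All mice were C57BL/6, the sample titles call them old, and every library is labelled as B cell. The other 9 libraries, 3 each of non-leukaemic double mutants (DM), Sf3b1 mutants (Sf3b1 MT) and wild type (WT), served for the estimate of the spread and as further levels. The labels do not give an age in numbers, the Cre driver, the part of Atm that was deleted, or whether replicates were separate mice. The p-values therefore measure the spread between these samples, which may be in part technical.

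CLL is a cancer of mature B cells that carry CD5 on their surface, and in mice it often resembles B-1 cells, a self-renewing subset. ATM is a kinase that starts the response to DNA double-strand breaks, and SF3B1 is the subunit of the U2 spliceosomal particle that helps to recognise the branch point of introns. Both genes are recurrently mutated in human CLL. Because DM-CLL differs from Atm MT by both a second lesion and overt disease, a difference between the groups cannot be told apart into a part due to the Sf3b1 mutation and a part due to leukaemia.

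Expression was given as TPM, transcript abundance scaled to a fixed library total, for 18554 gene symbols, and 9898 genes with at least 1 TPM in at least 2 libraries were tested on log2(TPM + 1). A log2 ratio is DM-CLL over Atm MT, given ± SE. On this scale the change of genes with few TPM is understated. Rose and fell are used of genes with a Benjamini-Hochberg adjusted p below 0.05 in limma over all tested genes. No counts were given, so the read depth and the counting error of single values are unknown. Pearson's r across genes was 0.925 between the DM-CLL libraries, 0.926 to 0.98 between Atm MT libraries and 0.875 to 0.942 between the groups.

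Markers of cells other than B cells differed between libraries of 1 group, and these values stand beside the results below. The 18 B-cell identity genes summed to 6259 and 5824 TPM in DM-CLL, against 4810 to 6820 TPM in Atm MT. Summed over the erythroid list, DM-CLL replicate 4 held 35100 TPM and replicate 5 held 48 TPM, against 17.4 to 2552 TPM in Atm MT. DM-CLL replicate 4 was also the higher for neutrophil genes (1431 TPM, against 134 TPM in replicate 5 and 101 to 829 TPM in Atm MT) and for T-cell genes (545 TPM, against 290 TPM in replicate 5 and 113 to 231 TPM in Atm MT). The complement gene C1qa, made by tissue macrophages, stood at 8.01 and 12.3 TPM in DM-CLL. In Atm MT it stood at 120 to 241 TPM in replicates 1 to 4 and at 28.1 and 11.2 TPM in replicates 5 and 6. Natural killer genes summed to 80.2 and 33.3 TPM in DM-CLL, against 3.03 to 12.9 TPM in the same 4 Atm MT libraries and 46.2 and 54.7 TPM in Atm MT replicates 5 and 6. In bulk samples, fewer cells of a type and less RNA per cell cannot be told apart.

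**Figure D1:**
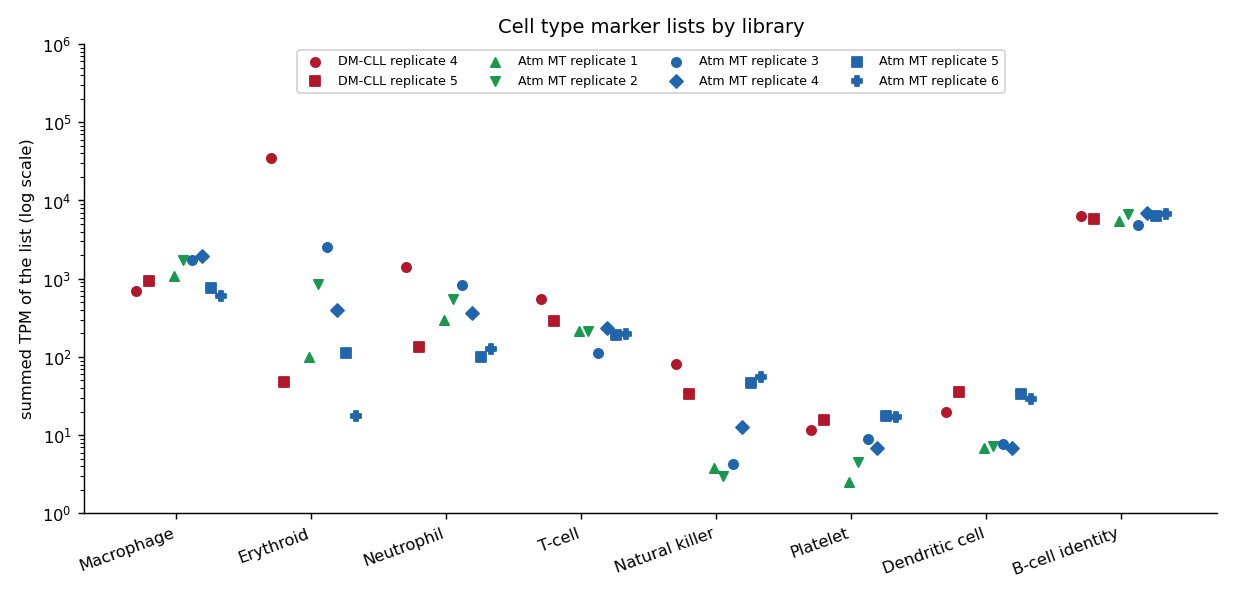
Summed TPM of 8 marker lists (log scale) in each of the 2 DM-CLL and 6 Atm MT libraries, 1 point per library. DM-CLL replicate 4 stood at 35100 TPM for erythroid genes, and Atm MT replicates 1 to 4 stood highest for macrophage genes.

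The targeted genes did not separate the groups. Sf3b1 (chromosome 1, 54985169 to 55027481, GRCm38) measured 140 and 138 TPM in DM-CLL, against a lowest value of 112, a median of 130 and a highest of 191 TPM in Atm MT. The groups overlapped (log2 ratio 0.01 ± 0.24, adjusted p = 0.991), and total TPM do not show which allele was transcribed. DM libraries, with the same lesions and no leukaemia, averaged 57.4 ± 17.1 TPM (SD, n = 3). Atm (chromosome 9, 53439149 to 53536740) measured 7.78 and 9.20 TPM in DM-CLL, against 4.24, 5.78 and 15.6 TPM (lowest, median and highest) in Atm MT, and also overlapped (log2 ratio 0.27 ± 0.35, adjusted p = 0.613). The deleted stretch of Atm is not stated, so the gene's total level does not check the labels.

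Across all genes, 1559 of 9898 passed (15.8%), 1320 rising (13.3%) and 239 falling (2.41%). At an unadjusted p below 0.05 there were 3178. The median log2 ratio over all tested genes was 0.25, so the excess of rises depended on the scaling. After median-ratio scaling, which brought that median to 0.01, 1310 genes passed, 707 rising (7.14%) and 603 falling (6.09%), and 942 genes passed in the same direction in both. Rises thus made up 84.7% of the called genes on the deposited scale and 54.0% after scaling. Without Atm MT replicates 1 to 4, a setting that leaves 2 Atm MT libraries, 872 genes rose (8.81%) and 344 fell (3.48%). Without DM-CLL replicate 4, 524 genes rose (5.29%) and 109 fell (1.1%), with replicate 5 assumed to vary like the other groups. Of the 113 named genes that passed, 44 kept their calls in each of 8 omissions of 1 library, 62 lost the call without DM-CLL replicate 4 and 32 without DM-CLL replicate 5.

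**Figure D2:**
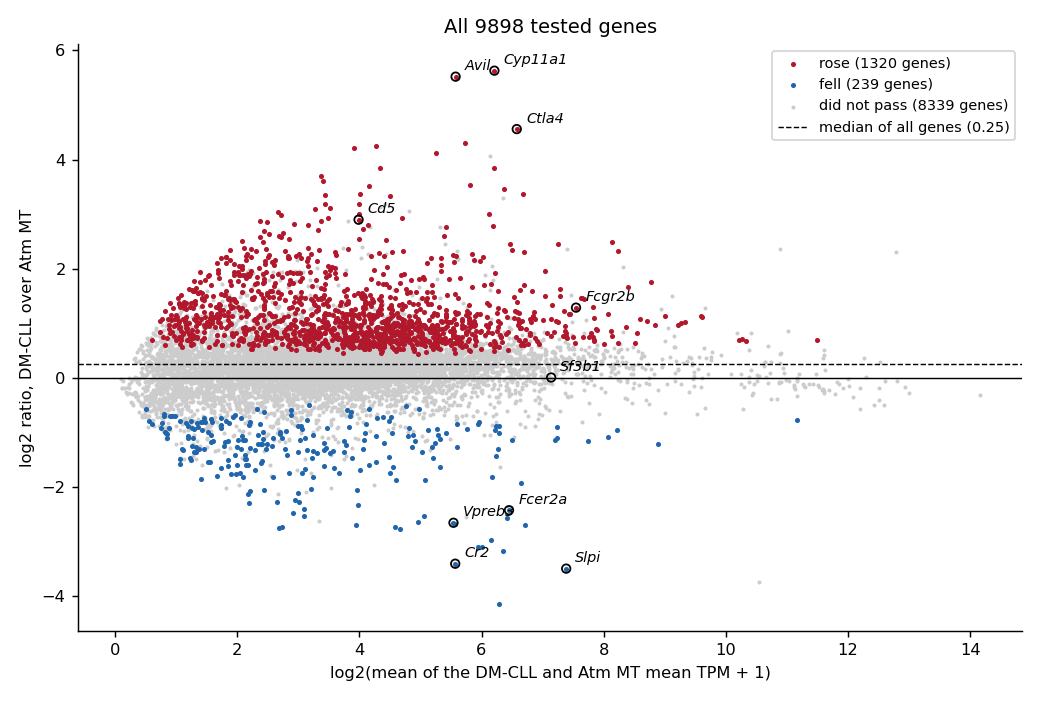
Log2 ratio of DM-CLL over Atm MT against mean level for 9898 genes, 1 point per gene, with 1320 rises in red and 239 falls in blue. The dashed line is the median of all genes, 0.25, and Sf3b1 lies near 0.

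Most of the largest rises were genes with little signal in Atm MT. Cyp11a1, the enzyme that starts steroid synthesis from cholesterol (chromosome 9, 58006411 to 58027023), measured 206 and 81.1 TPM in DM-CLL, against 0.42, 1.20 and 4.93 TPM in Atm MT (lowest, median and highest, the order used for Atm MT from here on). Both DM-CLL libraries lay above all Atm MT libraries, with a log2 ratio of 5.63 ± 0.69 (adjusted p = 6.77e-05). Avil, the actin-binding protein advillin (chromosome 10, 127000709 to 127020994), measured 65.1 and 119 TPM in DM-CLL, against 0.25, 0.515 and 4.38 TPM in Atm MT. Its log2 ratio was 5.52 ± 0.50 (adjusted p = 3.45e-06), again with no overlap. Ctla4, an inhibitory receptor that binds the B7 ligands CD80 and CD86 (chromosome 1, 60887000 to 60915832), measured 153 and 210 TPM in DM-CLL, against 3.54, 5.82 and 19.9 TPM in Atm MT (log2 ratio 4.56 ± 0.50, adjusted p = 2.24e-05). In DM, the non-leukaemic libraries with both lesions, Ctla4 averaged 4.45 ± 1.42 TPM (SD, n = 3), a level within the Atm MT range. The actin-linked protein vinculin, Vcl (chromosome 14, 20929398 to 21033676), measured 154 and 116 TPM in DM-CLL, against 3.73, 6.84 and 30.7 TPM in Atm MT (log2 ratio 3.84 ± 0.48, adjusted p = 7.98e-05).

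**Figure D3:**
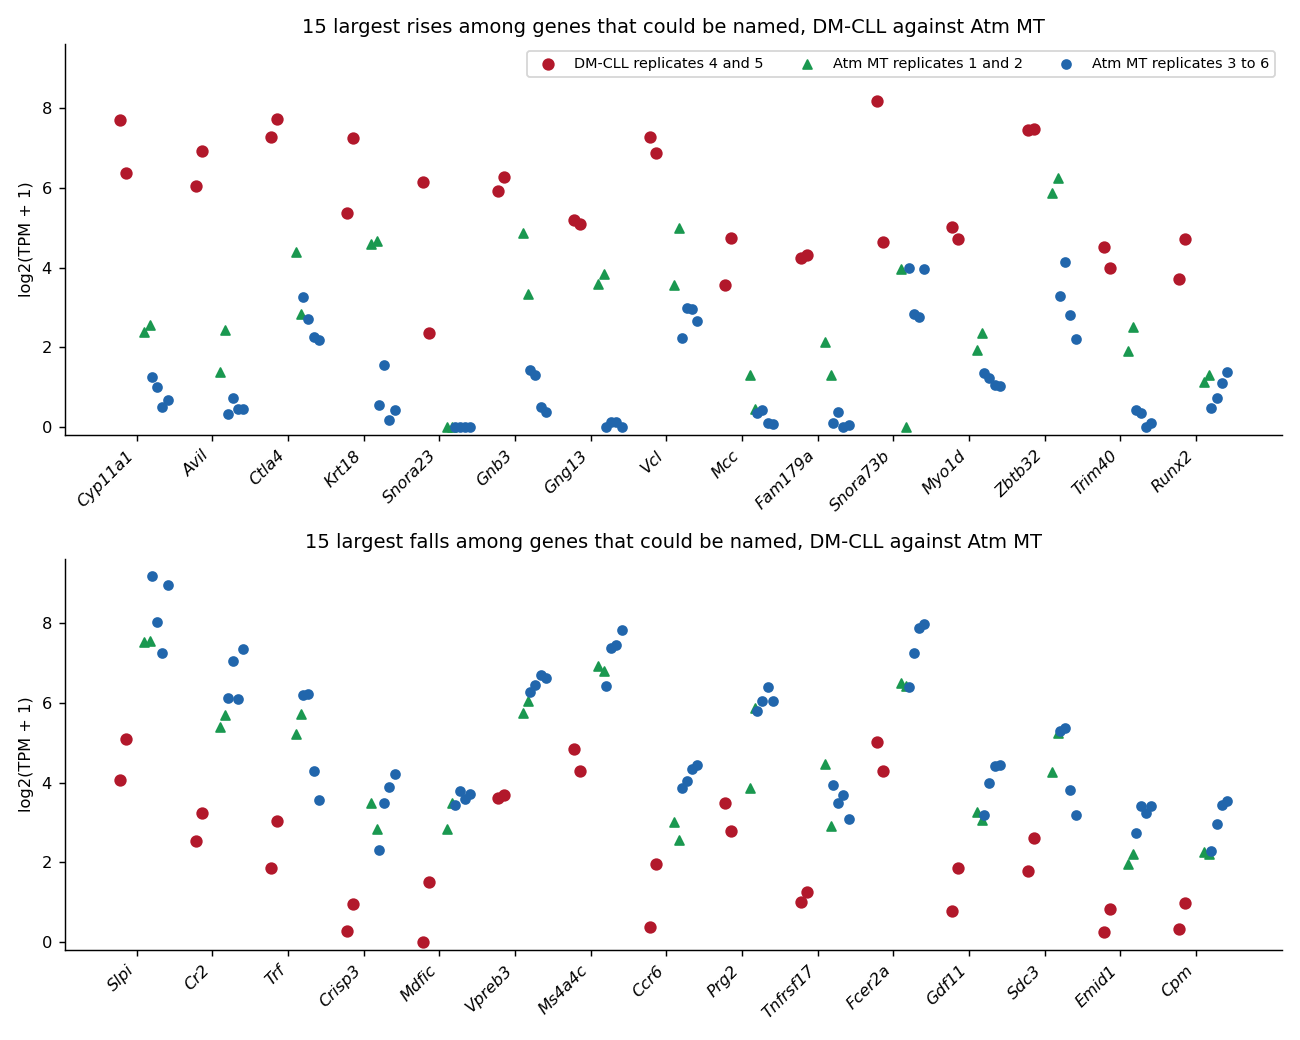
Log2(TPM + 1) of the 15 largest rises and 15 largest falls that the naming rule allows, 1 point per library, with DM-CLL left of Atm MT for each gene. By that rule every DM-CLL point lies above (rises) or below (falls) every Atm MT point, and Atm MT replicates 1 and 2 lie above the other Atm MT libraries for 11 of the 15 rises.

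The other large rises held a pair of functionally linked genes, keratin and transcription factor genes. Gnb3 and Gng13, which encode a beta and a gamma subunit of heterotrimeric G proteins, both rose: Gnb3 (chromosome 6, 124834240 to 124840275) measured 59.0 and 76.2 TPM in DM-CLL, against 0.31, 1.57 and 28.1 TPM in Atm MT (adjusted p = 0.00318). Gng13 (chromosome 17, 25717171 to 25719406) measured 35.3 and 33.1 TPM in DM-CLL, against 0, 0.1 and 13.2 TPM in Atm MT (adjusted p = 0.00656). Krt18, a keratin of simple epithelia (chromosome 15, 102028180 to 102032027), measured 40.3 and 151 TPM in DM-CLL, against 0.14, 1.20 and 24.5 TPM in Atm MT (log2 ratio 4.31 ± 1.0, adjusted p = 0.0078). The transcription factors Zbtb32 and Runx2 rose as well. Zbtb32 (chromosome 7, 30589681 to 30598909) measured 172 and 177 TPM in DM-CLL, against 3.65, 12.7 and 74.2 TPM in Atm MT (adjusted p = 0.0103). Runx2, known for its role in bone formation (chromosome 17, 44495987 to 44814797), measured 12.02 and 25.4 TPM in DM-CLL, against 0.4, 1.16 and 1.62 TPM in Atm MT (log2 ratio 3.19 ± 0.27, adjusted p = 1.91e-06). Mcc, Fam179a, Myo1d (an unconventional myosin), Trim40 and the small nucleolar RNAs Snora23 and Snora73b complete the 15. Snora23 is listed at 0 in every Atm MT library and at 69.5 and 4.17 TPM in DM-CLL, and Snora73b stood at 285 and 23.8 TPM in DM-CLL, against 0, 10.3 and 15.01 TPM in Atm MT. The poly(A) selection of the libraries does not target mature small nucleolar RNAs, and both were far higher in DM-CLL replicate 4 than in replicate 5.

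Of these 15 rises, 11 kept their calls whichever library was left out. Krt18 lost its call without DM-CLL replicate 5 (adjusted p = 0.0882), Gng13 without DM-CLL replicate 4 (adjusted p = 0.0698), Snora73b without DM-CLL replicate 4 (adjusted p = 0.47), and Zbtb32 without DM-CLL replicate 4 (adjusted p = 0.0898) or replicate 5 (adjusted p = 0.0519). Snora73b also did not pass without Atm MT replicates 1 to 4 (adjusted p = 0.0787). Snora23 and Mcc, which kept their calls, reached the filter on low values only with the DM-CLL libraries counted. Snora23 is listed at 0 in every library outside DM-CLL. Leaving out either DM-CLL library therefore leaves no spread for it, and its kept call is no support.

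By the naming rule, every Atm MT library lay below DM-CLL for these 15 genes. Within Atm MT, replicates 1 and 2 stood above the other 4 Atm MT libraries for most of them. They were the 2 highest Atm MT libraries for 11 of the 15 largest rises (73.3%), for 254 of all 1320 rises (19.2%) and for 440 of 9898 tested genes (4.45%). Over the 15 genes the median level was 59.0 and 33.1 TPM in DM-CLL replicates 4 and 5, against 4.25 and 4.72 TPM in Atm MT replicates 1 and 2. Zbtb32, for example, stood at 57.1 and 74.2 TPM in these libraries, and Krt18 at 23.2 and 24.5 TPM. No label sets these libraries apart, and they stay in Atm MT except in the counts that are said to leave libraries out.

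The largest falls without overlap between the groups were a secreted inhibitor, Slpi, and a complement receptor, Cr2. Slpi, the secretory leukocyte protease inhibitor (chromosome 2, 164354070 to 164389095), measured 15.9 and 33.1 TPM in DM-CLL, against 149, 223 and 577 TPM in Atm MT (log2 ratio −3.49 ± 0.51, adjusted p = 0.000259). Cr2, the complement receptor CD21 (chromosome 1, 195136811 to 195176716), measured 4.76 and 8.35 TPM in DM-CLL, against 40.8, 67.9 and 161 TPM in Atm MT (log2 ratio −3.40 ± 0.49, adjusted p = 0.000255). Both DM-CLL libraries lay below all Atm MT libraries for both genes. Fcer2a, the low-affinity IgE receptor CD23 (chromosome 8, 3681737 to 3694175), measured 31.2 and 18.4 TPM in DM-CLL, against 83.5, 120 and 249 TPM in Atm MT (adjusted p = 0.000843). Vpreb3, a protein that associates with immunoglobulin light chains in early B cells (chromosome 10, 75943057 to 75949657), measured 11.2 and 11.8 TPM in DM-CLL, against 52.1, 80.7 and 102 TPM in Atm MT, with the smallest error of these falls (log2 ratio −2.65 ± 0.21, adjusted p = 1.12e-06). CD21 and CD23 are textbook markers of marginal zone and follicular B cells, and both are low on B-1 cells.

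Receptors for positioning and survival also stood among the falls. Ccr6, the receptor for the chemokine CCL20 (chromosome 17, 8236043 to 8257141), measured 0.3 and 2.92 TPM in DM-CLL, against 4.93, 14.5 and 20.7 TPM in Atm MT (log2 ratio −2.53 ± 0.47, adjusted p = 0.0017). Tnfrsf17, the plasma-cell receptor BCMA (chromosome 16, 11313812 to 11320074), measured 1.0 and 1.39 TPM in DM-CLL, against 6.53, 11 and 21.2 TPM in Atm MT (adjusted p = 0.000459). The groups did not overlap for either gene. The remaining falls of the 15 were Trf (transferrin), Crisp3, Mdfic, Ms4a4c, Prg2 (eosinophil major basic protein), Gdf11, Sdc3, Emid1 and Cpm, with log2 ratios from −2.76 to −2.13. Trf lost its call without Atm MT replicates 1 to 4 (adjusted p = 0.0808), the libraries high in macrophage genes. Trf, Mdfic, Ccr6 and Sdc3 lost theirs without DM-CLL replicate 4 (adjusted p = 0.125, 0.135, 0.0817 and 0.0902), and the other 11 falls kept their calls in each of the 8 omissions.

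Promoters of the genes that moved together were read from RefSeq (GRCm38.p6), as the 250 bases before and 50 after each start, and searched on both strands for 3 short motifs. Of the 15 largest falls, 13 had a window, and 7 of these (53.8%) held TTTGAA, letters within the longer sites of the LEF and TCF factors, against 20.2% of 27025 symbols with a window. The stretches below, on each gene's own strand, show where those letters lie in 3 of them, with the match in capitals in its reverse-complement form, TTCAAA.
Slpi (chr2:164356712-164356741, minus strand): ataggttagagtTTCAAAatcccagaaagt
Ccr6 (chr17:8235874-8235903, plus strand): acaggaccccctTTCAAAgaactttacagt
Tnfrsf17 (chr16:11313783-11313808, plus strand): gaaagagaggtaTTCAAAtcctccac
Of the 15 largest rises, 9 had a window and 3 held TTTGAA (33.3%). CCAAT, the core of the NF-Y site, was held by 3 of 13 falls (23.1%) and 4 of 9 rises (44.4%), against 41.1% of all symbols. A match describes letters in a window and no binding, and the longer LEF and TCF sites were not searched for. Lef1 itself did not pass (1.99 and 1.57 TPM in DM-CLL, against 0.2, 0.39 and 1.98 TPM in Atm MT, adjusted p = 0.0799). Without Atm MT replicate 2, the highest Atm MT library for Lef1, it passed as higher (adjusted p = 0.0089).

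Part of the list of B-1 cell and CLL genes was higher in DM-CLL. Of 23 listed members, 16 reached the filter on low values. Of these 16, 8 rose (Ctla4, Zbtb32, Cd5, Bhlhe41, Cd9, Spn, Plscr1 and Ptpn22) and 0 fell, beside 13.3% and 2.41% of all genes. Their median log2 ratio was 1.12, against 0.25 over all genes. Cd5, the surface glycoprotein that defines CLL and B-1a cells (chromosome 19), measured 30.8 and 20.8 TPM in DM-CLL, against 1.06, 1.60 and 15 TPM in Atm MT (log2 ratio 2.90 ± 0.55, adjusted p = 0.00208). The groups did not overlap, and the highest Atm MT value came from replicate 2. Bhlhe41, a transcription factor of B-1a cells in mice, measured 29.8 and 43.9 TPM in DM-CLL, against 2.83, 6.49 and 15.8 TPM in Atm MT (adjusted p = 0.00262). After median-ratio scaling 6 members rose and 1 fell, and without DM-CLL replicate 4 the count was 3 rising and 0 falling. The share of all genes after scaling was 7.14% rising and 6.09% falling. Other markers of human CLL did not pass. Cd200 measured 33.6 and 25.2 TPM in DM-CLL, against 18.4, 36.6 and 98.4 TPM in Atm MT, the survival gene Bcl2 measured 21.3 and 38.3 TPM, against 14.6, 18.5 and 27.5 TPM, and both overlapped (adjusted p = 0.602 and 0.164). Ror1 and Zap70 did not reach the filter on low values, with Ror1 listed at 0 in both DM-CLL libraries and Zap70 at 4.65 and 0.22 TPM in DM-CLL, against 0.22 to 0.65 TPM in Atm MT.

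Receptors and ligands of the CD28 family moved in both directions. Of 11 tested members, 4 rose (Ctla4, Icos, Cd80 and Pdcd1lg2) and Icosl, the ligand of ICOS, fell, beside 13.3% and 2.41% of all genes. Icos reached the filter on low values only through the DM-CLL libraries, so its rise adds no support to that count. Icos, a costimulatory receptor best known from T cells, measured 9.59 and 11.7 TPM in DM-CLL, against 0.22, 0.46 and 0.76 TPM in Atm MT (log2 ratio 2.98 ± 0.20, adjusted p = 3.99e-07). Its ligand Icosl measured 37.5 and 37.8 TPM in DM-CLL, against 56.8, 107 and 176 TPM in Atm MT (log2 ratio −1.42 ± 0.36, adjusted p = 0.0136), a call lost without DM-CLL replicate 4 or 5 (adjusted p = 0.112 and 0.0584). Ctla4 and Icos are abundant in activated T cells, so T-cell values belong beside them. The T-cell receptor component Cd3e measured 11.9 and 0.39 TPM in DM-CLL, against 0.09 to 0.74 TPM in Atm MT, and Cd3g 55.1 and 1.46 TPM, against 0.57 to 9.41 TPM. In DM-CLL replicate 5, Ctla4 stood at 210 TPM and Icos at 11.7 TPM, with Cd3e within the Atm MT range. The whole T-cell list summed to 290 TPM in that library, above the 113 to 231 TPM of Atm MT. The part of T cells in the Ctla4 and Icos levels was not tested. Of the 11 tested T-cell genes 3 rose (Cd3d, Cd2 and Thy1), beside 13.3% of all genes. The median log2 ratio of the T-cell list was 1.41, and −0.07 without DM-CLL replicate 4.

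Cd80, a B7 ligand of memory B cells, measured 29.5 and 31.9 TPM in DM-CLL, against 5.01, 8.65 and 13.6 TPM in Atm MT (log2 ratio 1.72 ± 0.29, adjusted p = 0.000959). It belongs to the list of T-bet and memory B-cell genes (median 0.71). Of its 13 members, 6 rose (Cd80, Pdcd1lg2, Itgam, Fcrl5, Il10 and Zbtb20) and the chemokine receptor Cxcr3 fell, beside 13.3% and 2.41% of all genes. The defining factor of that list, Tbx21 (T-bet), did not pass, at 1.88 and 2.90 TPM in DM-CLL, against 3.44 to 14.1 TPM in Atm MT (log2 ratio −1.0 ± 0.35, adjusted p = 0.0644). Il10, an anti-inflammatory cytokine of B-1 and regulatory B cells, measured 25.1 and 35.4 TPM in DM-CLL, against 2.78, 5.98 and 28.7 TPM in Atm MT. The groups overlapped for Il10, its adjusted p was 0.0425, and the call was lost after scaling (adjusted p = 0.118), without either DM-CLL library and without Atm MT replicate 3, 4, 5 or 6 (adjusted p = 0.0563 to 0.173 over these omissions). Among inhibitory receptors of B cells, Fcgr2b, Cd5 and Ceacam1 rose and Cd22 fell, of 10 tested. After scaling the count was 2 rising and 3 falling, beside 7.14% and 6.09% of all genes. Fcgr2b, the inhibitory Fc receptor, measured 262 and 263 TPM in DM-CLL, against 84.9, 109 and 141 TPM in Atm MT (log2 ratio 1.29 ± 0.20, adjusted p = 0.000402) and rose also after scaling (1.01, adjusted p = 0.00305).

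Several receptors of mature B cells were lower, while the pan-B-cell genes Cd79a and Ms4a1 did not pass. Of 18 B-cell identity genes, Cd24a rose and Cr2, Fcer2a, Vpreb3 and Cd22 fell (median −0.23), beside 13.3% rising and 2.41% falling over all genes. Cd24a, a glycoprotein high on immature B cells, measured 868 and 827 TPM in DM-CLL, against 259, 447 and 671 TPM in Atm MT (adjusted p = 0.017). That call was lost after scaling (adjusted p = 0.0562) and without DM-CLL replicate 4 or 5 (adjusted p = 0.143 and 0.0601). Cd79a, a signalling chain of the B-cell receptor, measured 1351 and 1170 TPM in DM-CLL, against 1302, 1507 and 1742 TPM in Atm MT (adjusted p = 0.304). It passed as lower after scaling (adjusted p = 0.0442). Ms4a1, the CD20 gene, stood at 695 and 656 TPM in DM-CLL, against 325, 457 and 585 TPM in Atm MT, and did not pass (adjusted p = 0.0768). Without Atm MT replicate 2 it passed as higher (adjusted p = 0.0374). Of 13 tested MHC class II presentation genes 0 passed on the deposited scale (median −0.12), and 4 fell after scaling. Of the B-cell identity genes, 0 rose and 7 fell after scaling (median −0.49). The share of all genes after scaling was 7.14% rising and 6.09% falling.

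In the B-cell receptor cascade, 6 of 30 tested genes rose and 2 fell, beside 13.3% and 2.41% of all genes. The list median of 0.27 was close to that of all genes. After scaling 3 rose and 6 fell, with a list median of −0.01, beside 7.14% rising and 6.09% falling over all genes. The activating exchange factor Sos1 (chromosome 17) measured 11.99 and 13.7 TPM in DM-CLL, against 3.05, 4.33 and 6.19 TPM in Atm MT (log2 ratio 1.33 ± 0.23, adjusted p = 0.00114). Lyn, Vav1, Cblb, Nfatc1 and Fcgr2b were the other rises. Cd22, an inhibitory coreceptor, measured 87.1 and 98.6 TPM in DM-CLL, against 132, 206 and 270 TPM in Atm MT (log2 ratio −1.09 ± 0.26, adjusted p = 0.0102), and Rasgrp3, another exchange factor of the Ras pathway, 14.8 and 18.5 TPM, against 28.4, 46.4 and 77.2 TPM (adjusted p = 0.00712). Without DM-CLL replicate 4 neither fall passed (adjusted p = 0.124 and 0.108), and 2 members of the cascade rose and 0 fell.

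Among 18 tested homing receptors, the integrin chains Itgb1, Itgb7 and Itgal and the hyaluronan receptor Cd44 rose. The chemokine receptors Ccr6, Cxcr3 and Cxcr4 fell. After scaling 3 homing receptors rose and 5 fell. Over all genes 13.3% rose and 2.41% fell, against 7.14% and 6.09% after scaling. Itgb1 measured 165 and 247 TPM in DM-CLL, against 32.1, 50.7 and 89.5 TPM in Atm MT (log2 ratio 1.96 ± 0.40, adjusted p = 0.00337). Itgb7 (chromosome 15) measured 210 and 258 TPM in DM-CLL, against 50.5, 79.1 and 95.3 TPM in Atm MT (adjusted p = 0.00131). Cxcr4, the receptor for CXCL12, measured 120 and 85.9 TPM in DM-CLL, against 129, 182 and 320 TPM in Atm MT (adjusted p = 0.0451), a call lost in 7 of the 8 omissions (adjusted p = 0.0507 to 0.247) and kept without Atm MT replicate 2. Cd44 overlapped between the groups and did not pass after scaling (adjusted p = 0.138), without DM-CLL replicate 4 (adjusted p = 0.523) or without Atm MT replicate 3 or 5 (adjusted p = 0.0525 and 0.0503). Itgal did not pass without DM-CLL replicate 4 or 5 (adjusted p = 0.135 and 0.0786), nor Cxcr3 without DM-CLL replicate 5 (adjusted p = 0.15). The homing count was 2 rising and 1 falling without DM-CLL replicate 4. Of 9 tested plasma-cell genes, Tnfrsf17, Sdc1 (CD138) and the secretory factor Xbp1 fell and Prdm1 rose, beside 2.41% and 13.3% of all genes. Xbp1 measured 50.8 and 48.5 TPM in DM-CLL, against 75.6, 89.4 and 148 TPM in Atm MT (adjusted p = 0.0179). It did not pass without DM-CLL replicate 4 or 5 (adjusted p = 0.116 and 0.0779), and neither did Sdc1 (adjusted p = 0.0544 and 0.0699). Prdm1 did not pass after scaling (adjusted p = 0.182), without DM-CLL replicate 5 (adjusted p = 0.386) or without Atm MT replicate 1, 3 or 5 (adjusted p = 0.0633, 0.0502 and 0.0635). Without DM-CLL replicate 4 the plasma-cell count was 1 rising and 1 falling.

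Of 25 tested genes of Myc and ribosome biogenesis, 14 rose in DM-CLL and 0 fell, against 13.3% rising over all genes. Of the 25, 24 had log2 ratios above 0, and the median was 0.77, against 0.25 over all genes. After scaling 4 rose, against 7.14% rising over all genes, and the median was 0.50, against 0.01 over all genes. Without DM-CLL replicate 4 the list median was 0.48, against 0.16 over all genes. Odc1, the first enzyme of polyamine synthesis and a Myc target, measured 125 and 145 TPM in DM-CLL, against 44.0, 55.4 and 81.9 TPM in Atm MT (log2 ratio 1.19 ± 0.25, adjusted p = 0.00387). Bop1, a factor for the large ribosomal subunit (chromosome 15), measured 81.4 and 56.1 TPM in DM-CLL, against 29.0, 30.7 and 38.1 TPM in Atm MT (adjusted p = 0.000603). Myc itself, also on chromosome 15, measured 46.5 and 38.2 TPM in DM-CLL, against 19.2, 24.2 and 28.4 TPM in Atm MT. Its groups did not overlap, but it did not pass (log2 ratio 0.79 ± 0.34, adjusted p = 0.119).

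The palindrome CACGTG, the E-box bound by MYC with MAX, was searched in the promoters of the 14 rising members. It was in 1 of the 12 with a window (8.33%), against 8.09% of all symbols, a share near the background. That gene was Nop2, a ribosomal RNA methyltransferase at 38.6 and 29.5 TPM in DM-CLL, against 20.9 to 27.2 TPM in Atm MT (log2 ratio 0.55 ± 0.17, adjusted p = 0.0344), and the stretch is shown with the E-box in capitals.
Nop2 (chr6:125131811-125131840, plus strand): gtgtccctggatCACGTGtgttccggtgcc
The E-box begins 60 bases before the Nop2 start. Absence from the other windows says only that these letters are not within them.

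All 40 cell-cycle genes had log2 ratios above 0 (median 0.99, against 0.25 over all genes). Of these, 2 passed, E2f2 and Cenpf, beside 13.3% rising over all genes. Without DM-CLL replicate 4 the median of the cell-cycle list was 0.32. The summed cell-cycle level was 1459 and 619 TPM in DM-CLL, against 339 to 1002 TPM in Atm MT, with the highest Atm MT value in replicate 2. Mki67, the proliferation marker, measured 49.0 and 19.98 TPM in DM-CLL, against 6.02, 7.30 and 20.8 TPM in Atm MT, and did not pass (adjusted p = 0.0661). Without Atm MT replicate 2 or 6 it passed as higher (adjusted p = 0.0312 and 0.0406). DM-CLL replicate 4, the higher library, was also the one with 35100 TPM of erythroid genes, and the part of those cells in these levels was not tested. Of 16 glycolysis genes 4 rose (Tpi1, Slc2a1, Pgam1 and Pfkl), against 13.3% rising over all genes. After scaling, which lowered the median log2 ratio of all genes from 0.25 to 0.01, 0 glycolysis genes rose and 1 fell. Over all genes 7.14% rose and 6.09% fell on that scale. Tpi1, Slc2a1, Pgam1 and Pfkl then had log2 ratios of 0.51, 0.40, 0.33 and 0.28 and did not pass. Without DM-CLL replicate 4 the glycolysis count was 0 in both directions.

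Oxidative phosphorylation subunits and cytosolic ribosomal protein genes rose no more often than all genes (13.3%). Of 78 oxidative phosphorylation subunits 9 rose and 0 fell (median 0.36). Of 83 cytosolic ribosomal protein genes 3 rose and 0 fell (median −0.04, with 1 rising and 4 falling after scaling). These rises lay mostly on 2 chromosomes. All 5 subunits tested on chromosome 15 rose, as did 2 of 5 on chromosome 17, which leaves 2 elsewhere. Ndufb9, a complex I subunit on chromosome 15, measured 243 and 164 TPM in DM-CLL, against 67.3, 72.6 and 121 TPM in Atm MT (log2 ratio 1.33 ± 0.24, adjusted p = 0.00125). The 3 ribosomal protein genes that rose, Rpl8, Rpl37 and Rpl7l1, lie on chromosomes 15, 15 and 17.

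Part of the calls in the spliceosome lists lay on chromosomes 15 and 17. Of 9 tested SF3a and SF3b subunits, Phf5a on chromosome 15 rose, at 153 and 108 TPM in DM-CLL, against 44.3, 53.1 and 82.3 TPM in Atm MT (log2 ratio 1.22 ± 0.24, adjusted p = 0.00269). Without DM-CLL replicate 4 it did not pass (adjusted p = 0.0817). Of 38 other splicing genes 6 rose and 0 fell (15.8%, against 13.3% over all genes), 3 of them on chromosomes 15 and 17. The 3 rises elsewhere stand beside 10.3% rising over the other 17 autosomes. Hnrnpa1, a splicing repressor on chromosome 15, measured 1091 and 1031 TPM in DM-CLL, against 403, 481 and 664 TPM in Atm MT (adjusted p = 0.00158). Splicing itself cannot be read from gene-level TPM.

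Lists of stress and survival genes stand beside 13.3% rising and 2.41% falling over all genes. Of 17 p53 targets 2 rose, of 23 DNA break and repair genes 2, of 16 BCL2 family genes 3, of 20 interferon-stimulated genes 1 (Rsad2), and of 18 NF-kB genes 0 passed. Bbc3, the proapoptotic protein PUMA, measured 5.80 and 4.11 TPM in DM-CLL, against 0.84, 1.43 and 2.50 TPM in Atm MT (log2 ratio 1.28 ± 0.24, adjusted p = 0.00199), and without DM-CLL replicate 4 its adjusted p was 0.0579. Rsad2 stood at 41.4 TPM in DM-CLL replicate 4 and at 1.16 TPM in replicate 5, against 0.4 to 1.81 TPM in Atm MT, so its call came from 1 library (adjusted p = 0.85 without it). Without Atm MT replicates 1 to 4, 5 interferon-stimulated genes fell and 0 rose, beside 3.48% falling and 8.81% rising over all genes. The list median was then −0.84, against 0.12 over all genes. Of 19 unfolded protein response genes 2 rose (Pdia4 and Atf6) and Xbp1 fell. After scaling 0 of them rose and 3 fell, beside 7.14% rising and 6.09% falling over all genes. Of 19 immediate early genes 2 fell, Dusp2 at 35.6 and 45.6 TPM in DM-CLL, against 116, 158 and 205 TPM in Atm MT (log2 ratio −1.92 ± 0.26, adjusted p = 0.000173), and Zfp36, which did not pass without DM-CLL replicate 4 (adjusted p = 0.332).

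Genes known from tuft cells, a chemosensory epithelial cell type, were high in DM-CLL for part of the list. Of 20 listed genes 12 reached the filter, 6 rose (Avil, Gng13, Alox5, Il17rb, Gfi1b and Tas1r3) and Hpgds fell, beside 13.3% and 2.41% of all genes. Trpm5, Alox5 and Tas1r3 reached the filter only through the DM-CLL libraries, and members low in every library are left out, so the count is a description of the tested members. Alox5, the enzyme that starts leukotriene synthesis, measured 4.6 and 11.8 TPM in DM-CLL, against 0, 0.145 and 0.34 TPM in Atm MT (log2 ratio 2.87 ± 0.28, adjusted p = 6.18e-06). The defining factor Pou2f3 was below the filter, at 5.05 and 0.11 TPM in DM-CLL, against 0 to 0.21 TPM in Atm MT, and Dclk1 is listed at 0 in both DM-CLL libraries. Trpm5, the taste-cell ion channel, stood at 20.1 and 0.89 TPM in DM-CLL, against 0.11 to 8.25 TPM in Atm MT, and did not pass (adjusted p = 0.126). Gfi1b is also an erythroid factor, its level was 10.3 TPM in DM-CLL replicate 4 and 2.54 TPM in replicate 5, against 0.08 to 0.55 TPM in Atm MT, and it did not pass without replicate 4 (adjusted p = 0.361).

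**Figure D4:**
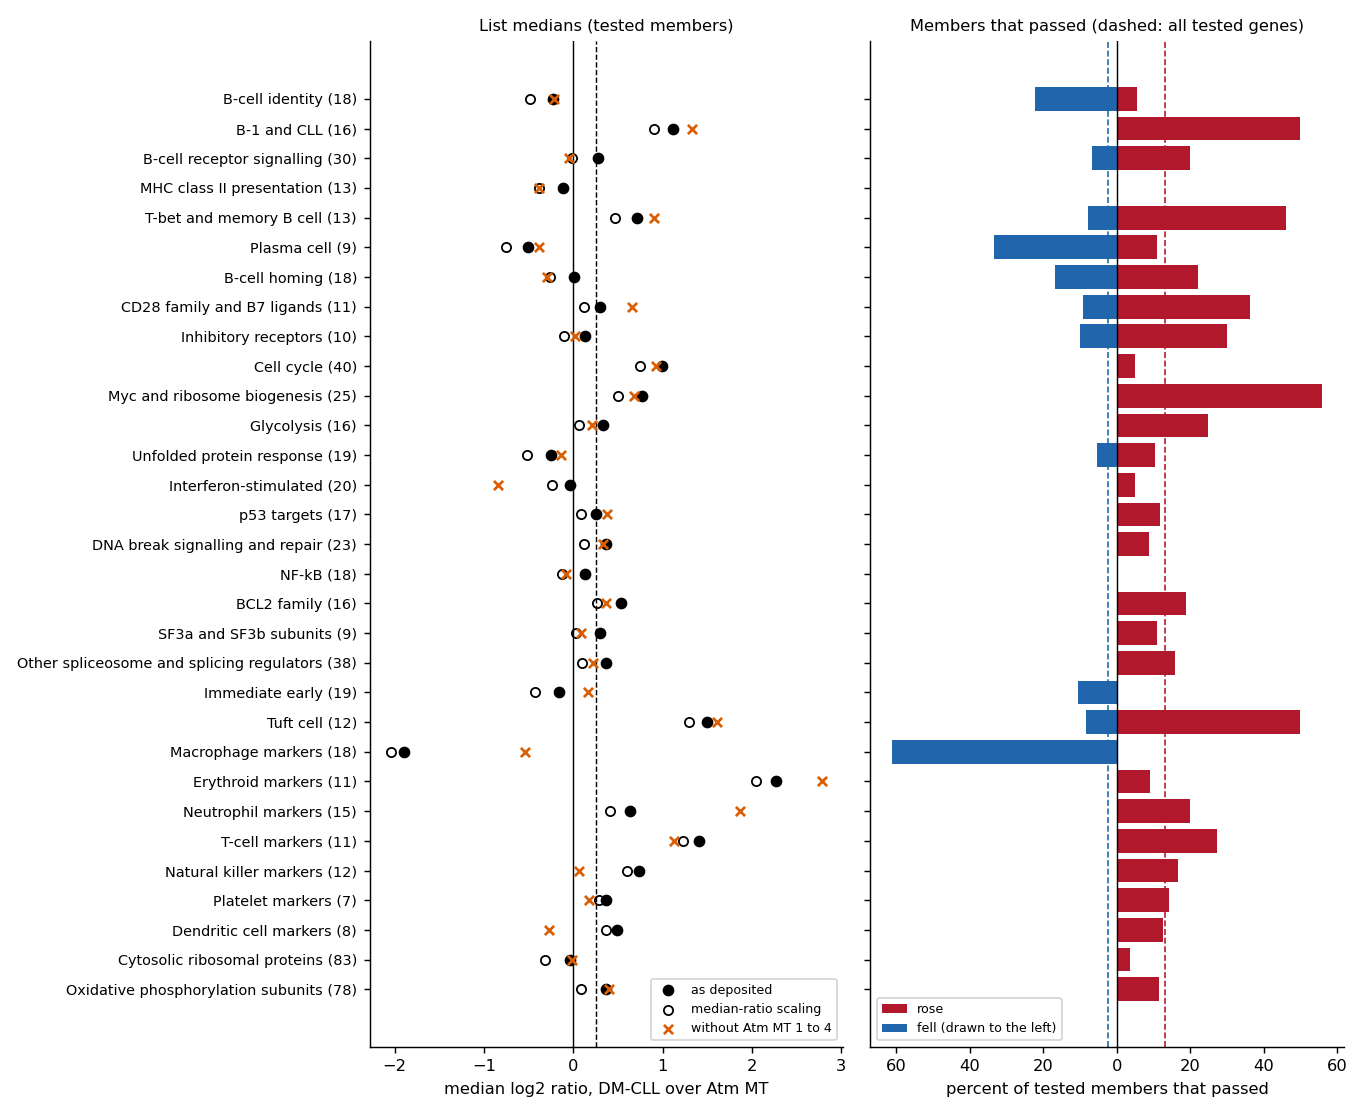
Left, the median log2 ratio of DM-CLL over Atm MT of each list with at least 5 tested members, on the deposited scale, after median-ratio scaling and without Atm MT replicates 1 to 4. Right, the percent of tested members that rose or fell, with 13.3% and 2.41% over all tested genes as dashed lines. Of the tested members, 8 of 16 B-1 and CLL genes and 14 of 25 genes of Myc and ribosome biogenesis rose, and 11 of 18 macrophage genes fell.

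Macrophage genes fell in DM-CLL, in 11 of 18 tested members with a median of −1.90, beside 2.41% falling over all genes. C1qb measured 6.20 and 14.3 TPM in DM-CLL, against 10.2, 179 and 282 TPM in Atm MT (adjusted p = 0.0289), and the groups overlapped. Without Atm MT replicates 1 to 4, 0 macrophage genes fell and 1 rose, and without DM-CLL replicate 4 there were 0 in both directions, with a median of −1.61. The summed list stood at 692 and 927 TPM in DM-CLL, against 1085 to 1936 TPM in Atm MT replicates 1 to 4 and 753 and 593 TPM in Atm MT replicates 5 and 6. Of the other marker lists, 3 of 15 neutrophil, 2 of 12 natural killer, 1 of 11 erythroid, 1 of 7 platelet and 1 of 8 dendritic cell genes rose and 0 fell, beside 13.3% rising and 2.41% falling over all genes. Without Atm MT replicates 1 to 4, 0 genes rose in each of these 5 lists, and 1 platelet and 1 dendritic cell gene fell. Gzmb, 1 of the 2 natural killer genes that rose, reached the filter on low values only through the DM-CLL libraries. Its rise therefore adds no support to the natural killer count.

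Rises were more frequent on chromosomes 15 and 17 than on any other autosome. Of 396 tested genes on chromosome 15, 239 rose (60.4%) and 2 fell, with a median log2 ratio of 0.80. Of 520 on chromosome 17, 158 rose (30.4%) and 10 fell, with a median of 0.50. On the other 17 autosomes, 872 of 8507 rose (10.3%) and 221 fell, with a median of 0.23. After median-ratio scaling 164 genes rose and 5 fell on chromosome 15, and 82 rose and 24 fell on chromosome 17. Without DM-CLL replicate 4, 111 genes rose on chromosome 15 and 56 on chromosome 17, with medians of 0.73 and 0.44.

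The shift was present in both DM-CLL libraries. Each library's genes were set against the mean of the Atm MT libraries (without the library itself) and centred on the library's median. Chromosome 15 then stood at 0.56 and 0.56 in DM-CLL, against −0.13 to 0.14 in Atm MT, and chromosome 17 at 0.22 and 0.28 in DM-CLL, against −0.03 to 0.1 in Atm MT. The other 17 autosomes lay between −0.11 and 0.06 in DM-CLL. Set against the mean of the 9 DM, Sf3b1 MT and WT libraries, which share no library with the contrast, chromosome 15 stood at 0.58 and 0.55 in DM-CLL, a ratio of 1.49 and 1.46, and at 0.15 and 0.14 in Atm MT replicates 1 and 2, against −0.07 to 0 in Atm MT replicates 3 to 6. On that scale the 17 autosomes other than 15 and 17 ran from −0.08 to 0.07 in Atm MT replicate 1 and from −0.12 to 0.13 in replicate 2, so replicate 2 had another autosome close to its chromosome 15 value. Over 5 equal groups of genes along chromosome 15, DM-CLL values ran from 0.42 to 0.71. On chromosome 17 the middle group, from 33329342 to 36877833, stood at 0.09 and 0.09 in DM-CLL, and the other groups from 0.14 to 0.46. DNA copy number was not measured.

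**Figure D5:**
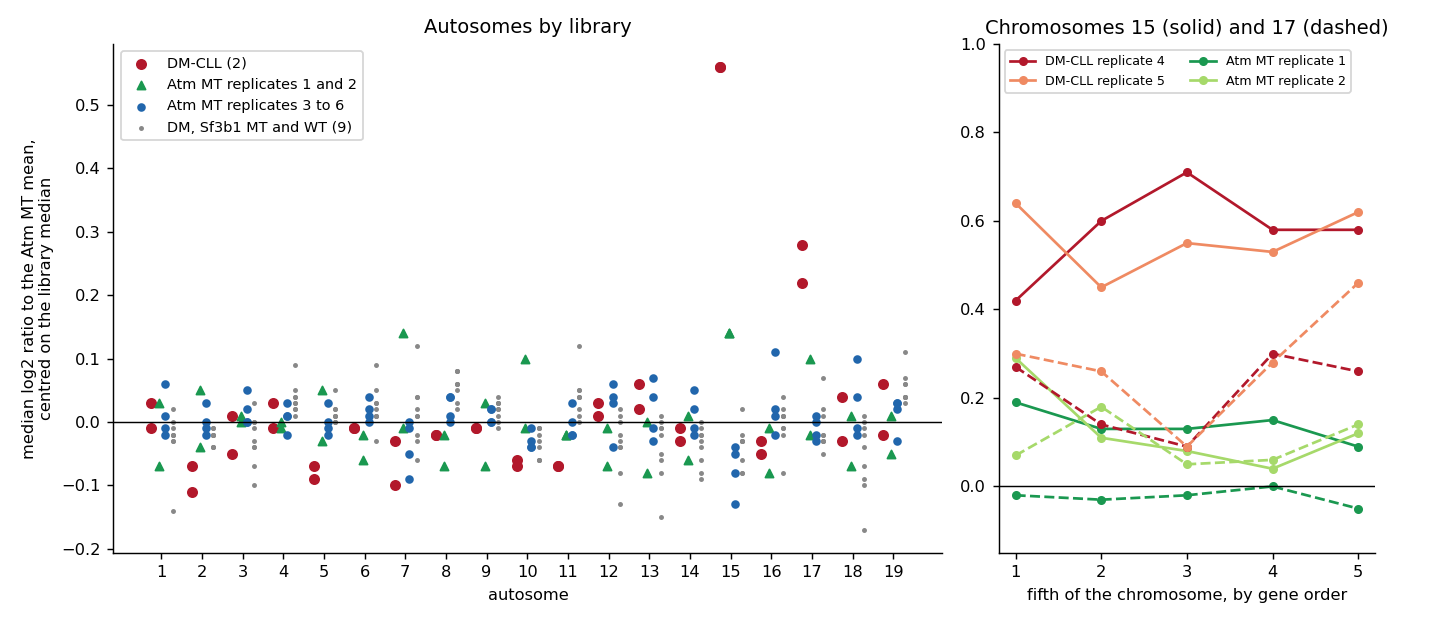
Left, the median log2 ratio to the Atm MT mean of the tested genes on each autosome, centred on the library's median, 1 point per library (both DM-CLL points coincide at 0.56 on chromosome 15). Right, the same for 5 groups of genes along chromosomes 15 and 17 in DM-CLL and in Atm MT replicates 1 and 2.

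Single genes on chromosome 15 changed by more than its median. St3gal1, a sialyltransferase, measured 105 and 125 TPM in DM-CLL, against 34.4, 38.4 and 38.8 TPM in Atm MT (log2 ratio 1.59 ± 0.16, adjusted p = 7.18e-06). Map3k12, a kinase of the JNK cascade, measured 4.50 and 6.29 TPM in DM-CLL, against 0.43, 0.63 and 0.95 TPM in Atm MT (log2 ratio 1.94 ± 0.18, adjusted p = 3.81e-06). Itga5, the alpha chain of the fibronectin receptor, measured 6.84 and 5.60 TPM in DM-CLL, against 0.27, 0.64 and 1.05 TPM in Atm MT (adjusted p = 5.66e-05). On chromosome 16, whose median of 0.17 was the lowest before rounding (chromosome 2 also rounds to 0.17, and after scaling chromosomes 2 and 5 lay lower, at −0.06 against −0.04), the 3 genes with the smallest p were also rises. St3gal6, another sialyltransferase, measured 69.9 and 47.0 TPM in DM-CLL, against 10.8, 11.1 and 13.95 TPM in Atm MT (log2 ratio 2.19 ± 0.18, adjusted p = 1.34e-06), and Ets2, a transcription factor, 24.2 and 26.2 TPM, against 5.54, 7.50 and 9.42 TPM (adjusted p = 8.88e-05). Fstl1, a secreted glycoprotein, measured 3.78 and 6.17 TPM in DM-CLL, against 0.08, 0.15 and 1.55 TPM in Atm MT (adjusted p = 8.1e-05). These 6 genes did not overlap between the groups and kept their calls in each of the 8 omissions.

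The levels in non-leukaemic double mutants stand beside these values without a further test of likeness, since the comparisons share libraries. Cd5 averaged 2.0 TPM in DM, Fcgr2b 61.5 TPM, St3gal1 26.9 TPM and Itgb7 53.3 TPM, each below both DM-CLL libraries. In WT, Fcgr2b averaged 177 TPM, and DM-CLL over WT did not pass in the same fit (log2 ratio 0.57, adjusted p = 0.0991). Cd80, Itgam and Zbtb20 did not pass against WT either (adjusted p = 0.128, 0.2 and 0.198). Cd5 and Itgb7 were higher in DM-CLL than in WT (adjusted p = 0.0015 and 0.00495). Cr2 averaged 38.6 TPM and Vpreb3 59.2 TPM in DM, above both DM-CLL libraries. Cyp11a1 averaged 3.25 ± 5.31 TPM in DM (SD, n = 3), with 9.38 TPM in replicate 3.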

How the data were processed

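B-cell RNA was sequenced as poly(A) libraries, and the authors deposited 1 table of TPM values per gene symbol, without counts. The submitters' processing notes name STAR and mm10. The program that computed the TPM, its annotation and all versions are not given in the sources used here. The listed genes summed to 43.1% to 59.7% of the full TPM total per library, so TPM levels also depend on features outside the table.

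Groups came from the genotype labels. Values were transformed as log2(TPM + 1), genes with at least 1 TPM in at least 2 of 17 libraries were kept (9898 of 18554, of which 3711 were at 0 throughout), and all 17 libraries in 5 groups were fitted with limma 3.58.1 (mean trend, R 4.3.3). The contrast was DM-CLL minus Atm MT, with 2-sided tests and Benjamini-Hochberg adjustment over all tested genes at 0.05. The residual degrees of freedom were 12. The fit was tested on simulated data. Positions came from GENCODE M21 (GRCm38), where 9734 tested symbols matched once. Tables were made with Python 3.11.15.

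The members, lists and tests were chosen with earlier results of these data known. The text names Sf3b1 and Atm, the 15 largest rises and 15 largest falls among genes that passed, did not overlap and had a mean of 5 TPM or more in the group with more (predicted genes, pseudogenes, immunoglobulin, T-cell receptor, mitochondrial, Xist and Y-linked genes left out), up to 4 members per list and direction, 12 set B-cell and CLL genes (1 of them is not reported here), and 3 genes each from the autosomes with the highest and lowest median. Further genes (Tbx21, Cd3e, Cd3g, Pou2f3, Dclk1, Trpm5, Nop2 and list members given by name alone) were added after their values were seen. Alternatives were another pseudocount (0.1), no filter, other scalings, removal of immunoglobulin or ribosomal protein genes, library weights, a replicate block, a fit of these groups alone, Xist as a covariate and leaving out libraries.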

Additional observations from a re-analysis of the deposited data

Results flagged for a closer look

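Among 125 named genes, 24 had 1 Atm MT library whose gap to the next value, divided by the range over the 6 libraries, was above Dixon's critical value. Chance alone flags about 1 in 20 such groups where values are normally distributed. These are TPM on a linear scale, for which that share was not tested. Of the 24, 16 came from Atm MT replicate 2, 3 from replicate 1, 2 each from replicates 3 and 6, and 1 from replicate 4. All were the highest of their group, and no explanation was tested.

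In Atm MT replicate 2 the outlying values were 4.38 TPM for Avil, 30.7 TPM for Vcl, 15 TPM for Cd5, 98.4 TPM for Cd200, 1.98 TPM for Lef1 and 1.55 TPM for Fstl1. The same library stood at 38.1 TPM for Bop1, 122 TPM for Tpi1, 14.7 TPM for Aen, 82.3 TPM for Phf5a, 2729 TPM for Rpl8 and 1274 TPM for Rpl37. It did so too for 4 respiratory chain genes of chromosome 15, with 121 TPM for Ndufb9, 494 TPM for Cox6c, 609 TPM for Atp5g2 and 76.5 TPM for Cyc1. Atm MT replicate 1 stood out for Ctla4 (19.9 TPM), Gnb3 (28.1 TPM) and Mcc (1.48 TPM), genes that rose in DM-CLL. Replicate 3 stood out for the neutrophil genes Elane (1.5 TPM) and Prtn3 (1.17 TPM), replicate 4 for Zfp36 (990 TPM), and replicate 6 for Zbtb20 (8.85 TPM) and Gzmb (0.88 TPM).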

How the results depend on the processing

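Counts of called genes moved with the setting. The count passing fell to 841 with library weights (725 rising, 116 falling), 849 with only these groups fitted (731 rising, 118 falling) and 927 with the replicate number as a block (696 rising). The groups share the numbers 4 and 5, whose deviations correlated at −0.17 and 0.02, so the block joins samples that share only a number. Rises numbered 784 at a common listed total and 783 without immunoglobulin genes. The latter setting also rescaled to a common total and still tested 9896 of 9898 genes. Rises were 586 without ribosomal protein genes, also rescaled (672 falling), and 707 after median-ratio scaling (603 falling). They were 872 without Atm MT replicates 1 to 4 and 695 with that omission and median-ratio scaling together (573 falling). The joint setting was chosen after seeing the data. Leaving out 1 library gave 633 to 2020 genes passing, 524 to 1733 rising and 109 to 292 falling, with the lowest counts without DM-CLL replicate 4. Of 2457 pairs of a named gene and a setting, 1935 kept their side of the threshold, 508 lost the call and 14 gained it. No called gene changed sign in these pairs. Sf3b1 and Atm, which did not pass, changed sign in 14 pairs. Depth is unknown, and 2 DM-CLL libraries limit every comparison.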
